A study of Mus musculus with 62 samples.

Results

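The peroxiredoxins Prdx1 to Prdx6, the superoxide dismutases Sod1 and Sod2, the glutathione peroxidase Gpx4 and catalase (Cat) were followed by gene symbol in 62 brain libraries of stressed and unstressed mice. All 10 genes were present among the 11121 genes counted. The set was chosen by enzyme function, with earlier results of these counts in view. Prdx1 was also selected on measured values, namely its contrast of stressed with unstressed mice in the nucleus accumbens, where the study listed it among the genes changed most, so that contrast, the interaction and the contrasts between regions, which all use its NAc values, are given for Prdx1 as a description, with no test. The libraries were made from prefrontal cortex (PFC) and from nucleus accumbens (NAc), a part of the ventral striatum, of male wild-type C57BL/6j mice aged 15 weeks. CTR mice received no stress, and mCRS mice underwent multimodal chronic restraint stress, daily restraint in tubes under changing light, noise, odor or shaking. The PFC gave 15 libraries in each group, after the authors had removed 2 samples of poor quality, and the NAc gave 16 in each. Tissue was taken from a single hemisphere per mouse, and which PFC and NAc libraries share a mouse was not stated. All mice carried the same genotype. The p values rest on the spread between libraries, which were treated as separate animals. The study took both regions from the same mice, so p values and intervals between regions and of the interaction ignore this pairing.

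These enzymes form the main line of defense against superoxide and hydrogen peroxide. Superoxide dismutases turn superoxide, which leaks from the respiratory chain, into hydrogen peroxide, and peroxiredoxins, glutathione peroxidases and catalase then reduce the peroxide to water. Peroxiredoxins are abundant proteins that use a reactive cysteine, which most of them regenerate through thioredoxin. Neurons have a high respiratory rate and little catalase, and many genes of this system are targets of the transcription factor NRF2, which binds antioxidant response elements (AREs) together with small MAF proteins.

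The genes are protein-coding and were located in the GENCODE annotation of GRCm38. Prdx1 (ENSMUSG00000028691, chromosome 4, 116685544 to 116700822) encodes a peroxiredoxin of cytosol and nucleus, and Prdx2 (ENSMUSG00000005161, chromosome 8, 84969587 to 84974834) a cytosolic form that is plentiful in neurons and red blood cells. Prdx3 (ENSMUSG00000024997, chromosome 19, 60864051 to 60874556) encodes the mitochondrial form, and Prdx4 (ENSMUSG00000025289, chromosome X, 155323918 to 155340754) that of the endoplasmic reticulum. Prdx5 (ENSMUSG00000024953, chromosome 19, 6906697 to 6910106) is found in mitochondria, peroxisomes and cytosol. Prdx6 (ENSMUSG00000026701, chromosome 1, 161240112 to 161251219) encodes a form that relies on glutathione and also acts on phospholipids, and it is prominent in astrocytes. Sod1 (ENSMUSG00000022982, chromosome 16, 90220754 to 90226329) encodes the cytosolic copper and zinc dismutase, and Sod2 (ENSMUSG00000006818, chromosome 17, 13006846 to 13040063) the mitochondrial manganese dismutase. Gpx4 (ENSMUSG00000075706, chromosome 10, 80047166 to 80056439) reduces lipid peroxides in membranes. Cat (ENSMUSG00000027187, chromosome 2, 103453849 to 103485160) encodes the peroxisomal enzyme that splits hydrogen peroxide.

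Promoter sequences were at hand for 9 of the 10 genes, from 250 bases before to 50 bases after the annotated start (RefSeq, GRCm38.p6). Gpx4 had several annotated starts, which made 12 windows in all. The letters TGACNNNGC, the core of the ARE, were searched on both strands and were found in 2 of the 12 windows (16.7%), against 4071 of 32851 windows of all genes (12.4%). The windows of Prdx1 and Sod1 are shown because they are the 2 that hold the motif. The capitals mark the match, which lies on the minus strand in both, and both windows are on the plus strand at chr4:116685349-116685648 (Prdx1) and chr16:90220512-90220811 (Sod1):
Prdx1: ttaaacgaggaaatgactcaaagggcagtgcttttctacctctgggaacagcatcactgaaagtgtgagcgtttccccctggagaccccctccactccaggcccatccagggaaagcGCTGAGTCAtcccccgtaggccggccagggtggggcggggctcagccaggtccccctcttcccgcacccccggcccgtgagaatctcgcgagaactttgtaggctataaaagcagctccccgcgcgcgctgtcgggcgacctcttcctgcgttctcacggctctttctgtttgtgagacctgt
Sod1: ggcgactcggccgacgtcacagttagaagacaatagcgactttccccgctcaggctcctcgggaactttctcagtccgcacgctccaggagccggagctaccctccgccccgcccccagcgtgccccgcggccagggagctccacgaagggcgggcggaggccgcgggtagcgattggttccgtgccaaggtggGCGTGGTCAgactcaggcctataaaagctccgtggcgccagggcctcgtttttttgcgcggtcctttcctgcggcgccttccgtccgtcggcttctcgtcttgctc
The match lay at -133 to -125 from the start in Prdx1 and at -56 to -48 in Sod1. Both windows also held the TATA box letters TATAAA, at -29 to -24 in Prdx1 and at -37 to -32 in Sod1, letters that occur on either strand in 13.6% of all windows. A match of letters is a description and says nothing on whether a factor was bound.

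Expression was measured by BRB-seq, in which oligo-dT primers with a barcode for each sample capture the 3′ ends of mRNAs before the samples are pooled. The authors' counts of uniquely mapped reads were used, with totals between 945286 and 4857359 per library. Levels are given as CPM, the counts per 1000000 counts of the TMM-scaled library, where TMM is the normalization of edgeR. The method reads 3′ ends and no length correction was made, so levels are compared between groups for a gene and not between genes. On average 87.1% (CTR) and 82.3% (mCRS) of the listed genes had a count in a PFC library, and 90.2% and 88.5% in a NAc library. The labelled regions were checked with neuronal markers. The 9 markers of striatal projection neurons summed to a median of 4973 CPM (CTR) and 4677 CPM (mCRS) in the NAc, against 622 and 756 CPM in the PFC. An exception was the library NAc CTR 7, at 511 CPM where the other libraries of its group held 3507 to 8219. In NAc mCRS 10 the choroid plexus markers Ttr and Clic6 summed to 21591 CPM, against at most 108 in the rest of its group. Each comparison that used these libraries was also fitted without them.

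The 10 genes fell into well counted and sparsely counted transcripts. Prdx1, Prdx2, Prdx5, Prdx6 and Sod1 had group medians between 151 and 523 CPM, and every library held at least 21 counts of each. Prdx3, Sod2 and Gpx4 had group medians between 41.6 and 113 CPM, with single libraries as low as 3 counts for Prdx3. Prdx4 and Cat had medians between 13.1 and 40.3 CPM and no count in some libraries. Prdx4 was without a count in 2 PFC mCRS, 1 NAc CTR and 4 NAc mCRS libraries, and Cat in 1 library each of PFC CTR, PFC mCRS and NAc mCRS. A count of 0 allows up to 3 counts in such a library, or 0.999 to 2.97 CPM at their totals, and covers counting error only, since reads copied by PCR were counted without molecular identifiers. The plot of CPM by library shows narrower bands for Prdx2, Prdx5, Prdx6 and Sod1 and the wide scatter of Prdx3, Prdx4 and Cat. Prdx1, though well counted, spread from 18.4 to 770 CPM in PFC mCRS libraries.

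**Figure D1:**
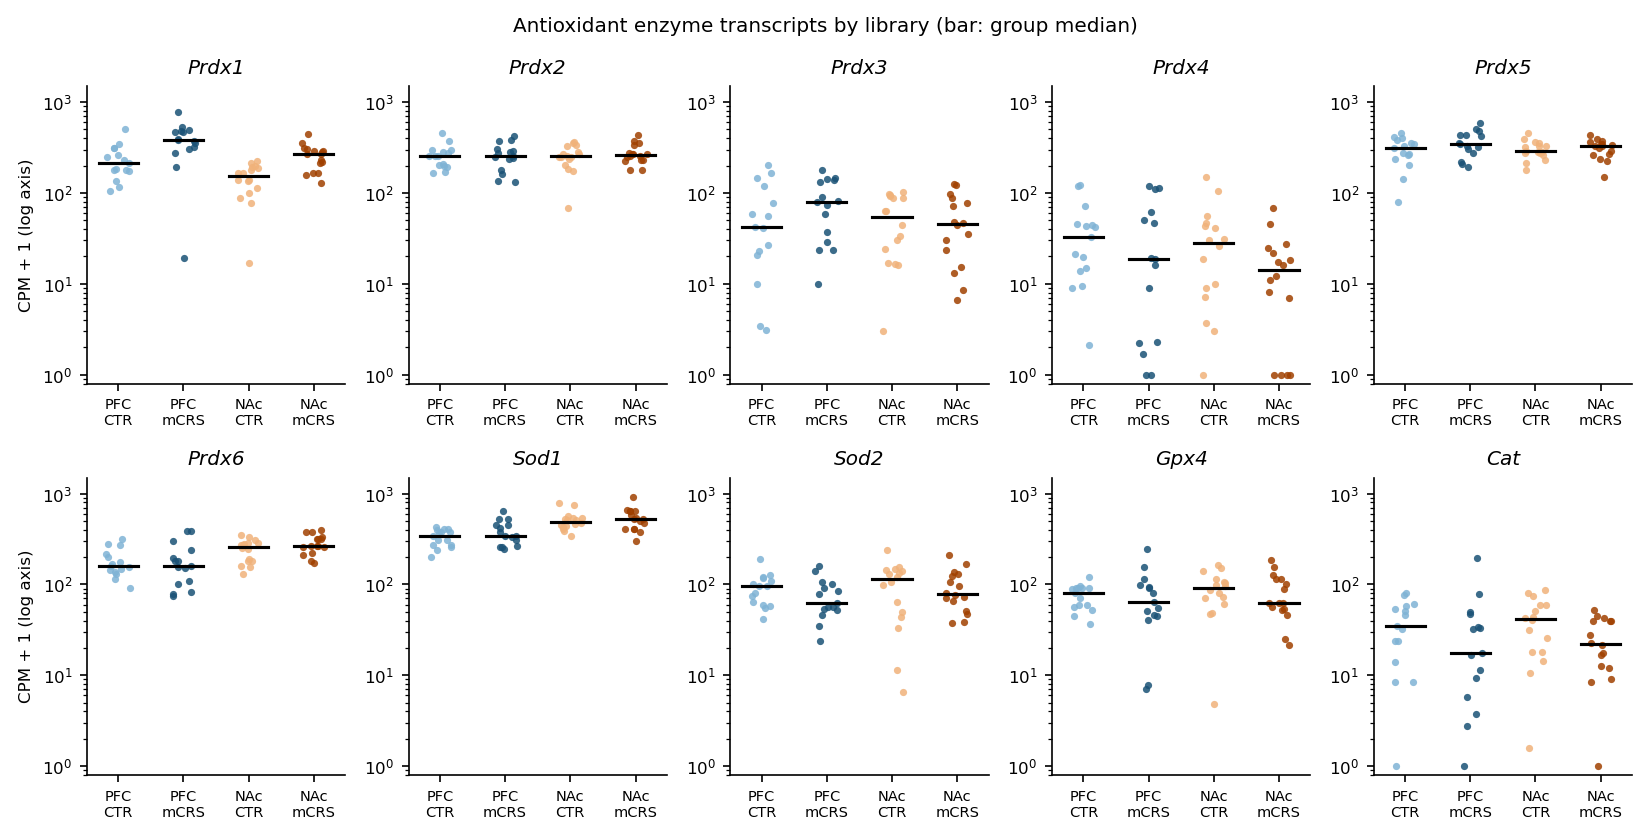
CPM + 1 on a log axis for each of the 10 genes in the 4 groups (15 PFC CTR, 15 PFC mCRS, 16 NAc CTR and 16 NAc mCRS libraries); each point is a library and each bar the group median. Sod1 and Prdx6 lie higher in the NAc, Prdx1 lies higher in the PFC and in mCRS libraries, and the groups overlap in every panel.

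The first question was whether chronic stress changed these transcripts in the PFC. None of the 10 genes passed the test there, and the clearest difference was in Prdx1, with higher values in most mCRS libraries. Prdx1 ranged from 104 to 502 CPM in PFC CTR libraries with a median of 210, and from 18.4 to 770 CPM in those of mCRS mice with a median of 381. Of the 15 mCRS libraries 13 lay above the CTR median, 2 lay above the highest CTR library, and the library PFC mCRS 12 lay below all CTR libraries. The study took PFC and NAc tissue from the same mice, so the PFC test of Prdx1 is not independent of its selection on NAc values. On the log2 scale the fold change of Prdx1 was 0.76 (SE 0.25, 95% interval 0.26 to 1.26, n = 15 each), with an unadjusted p of 0.0035 and a Benjamini-Hochberg FDR of 0.874 in edgeR's quasi-likelihood test. PFC mCRS 12 had the lowest total of its group (1094940 counts) and the lowest share of genes detected (69.7%). Without this library the log2 fold change of Prdx1 was 0.85 with an edgeR FDR of 0.219, the lowest FDR that leaving out any single library gave. What the library numbers stand for was not given. In the libraries numbered 1 to 8 the log2 difference was 1.20 (FDR 0.103), and in those numbered 9 and above it was 0.34 (FDR 0.999). It was 0.61 when the detected share of genes, lower in the PFC of mCRS mice, entered the fit as a covariate. In these libraries 7 of the 8 cortical excitatory neuron markers had log2 fold changes below 0, with a median of -0.31, 0 called and 1 at an unadjusted p below 0.05 in edgeR, and their sum had a median of 5694 CPM in CTR and 4467 CPM in mCRS mice. Of the 9 astrocyte markers 7 were also below 0, with a median of -0.10, 0 called and 1 at an unadjusted p below 0.05 in edgeR. By contrast 5 of the 8 oligodendrocyte markers and 5 of the 8 microglia markers were above 0.

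In this comparison 0 of the 10 genes had an FDR below 0.05, as did 0 of the 8916 genes tested (0%). At an unadjusted p below 0.05 there was 1 of the 10, Prdx1, where 312 of all genes tested (3.50%) passed. DESeq2 also gave 0 of the 10 at an FDR below 0.05, and 0 of the 8916 genes tested (0%). Of the 10 log2 fold changes 7 were above 0, as were 49.3% of those of all genes, with a median of 0.09 where the median of all genes was -0.01. These counts include Prdx1, whose test is not independent of its selection. Without Prdx1, 0 of 9 had an unadjusted p below 0.05 in edgeR, and 6 of 9 were above 0, with a median of 0.06. The remaining 9 genes lay close to 0 or had wide intervals.

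Among the other peroxiredoxins, Prdx5 had medians of 307 CPM in CTR and 346 CPM in mCRS libraries of the PFC, with 3 mCRS libraries above the highest CTR library. Its log2 fold change was 0.31 (95% interval -0.09 to 0.70). Prdx2, at medians of 255 and 252 CPM, differed by 0.03 (95% interval -0.36 to 0.41), and Prdx6, at 158 and 160 CPM, by 0.06 (95% interval -0.43 to 0.54). The intervals of these 3 genes stayed within 1 on the log2 scale on either side of 0. Prdx3, the mitochondrial form, had medians of 41.6 and 77.5 CPM, but its libraries spread from 2.11 to 202 CPM in CTR mice and its interval ran from -0.62 to 1.29. Prdx4 had an interval from -1.47 to 1.35, the widest of the 10, and a smaller change was not detectable at this depth.

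Sod1 was nearly level between the groups of the PFC at medians of 343 and 342 CPM, although 5 of the 15 mCRS libraries lay above the highest CTR library. Its log2 fold change was 0.23 (95% interval -0.10 to 0.55). Sod2, the mitochondrial dismutase, had medians of 94.7 CPM in CTR and 61.0 CPM in mCRS libraries, with 4 of 15 mCRS libraries above the CTR median, and the log2 fold change was -0.26 (95% interval -0.92 to 0.39). Gpx4 had medians of 78.7 and 63.7 CPM and a log2 fold change of 0.12 (95% interval -0.65 to 0.88). For Gpx4 the median was lower and the fitted mean higher in mCRS mice, and PFC mCRS 13, its highest library, held 245 CPM. Cat had medians of 34.2 and 16.8 CPM, and a single library, PFC mCRS 6, held 33.4% of all Cat counts of its group. For Cat the log2 fold change was -0.07 (95% interval -1.41 to 1.27), and it ran from -0.65 to 0.049 with single libraries left out.

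The same question in the NAc had 16 libraries in each group. Prdx1 ranged from 16.01 to 223 CPM in the 16 CTR libraries with a median of 151, and from 127 to 438 CPM in the 16 mCRS libraries with a median of 268. Of the 16 mCRS libraries 15 lay above the CTR median and 10 above the highest CTR library, while 5 CTR libraries lay below the lowest mCRS library. This is a log2 fold change of 0.81 (n = 16 each), given as a description. In the same libraries the 6 endothelial markers had log2 fold changes below 0, with a median of -0.58, 0 called and 2 at an unadjusted p below 0.05 in edgeR, and their sum had a median of 351 CPM in CTR and 224 CPM in mCRS mice. The 4 erythroid markers tested were above 0, with a median of 0.27 and 0 called. Above 0 were also 5 of 8 oligodendrocyte, 5 of 9 astrocyte, 4 of 8 microglia and 4 of 9 striatal markers. Of the 2 choroid plexus markers tested, both above 0, 1 was called (edgeR FDR 0.0339), and their sum reached 21591 CPM in NAc mCRS 10. NAc CTR 1, the lowest library for Prdx1, also held the lowest values of Prdx2 in its group at 68.1 CPM and of Prdx3 at 2.002 CPM. Without it the log2 fold change of Prdx1 was 0.73. It was 0.75 in the libraries numbered 1 to 8 and 0.86 in those numbered 9 and above.

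Of the 9 genes other than Prdx1, 0 passed an FDR of 0.05 in the NAc and 0 an unadjusted p of 0.05, while 1 of all 10141 genes tested was called (0.00986%) and 207 (2.04%) had an unadjusted p below 0.05. DESeq2 called 0 of these 9 here as well, and 0 of all 10141 genes (0%). Of these 9 log2 fold changes 4 were above 0 (5 of the 10 with Prdx1, against 49.3% of all genes), with a median of -0.04 where that of all genes was -0.01. Prdx6 had medians of 260 CPM in CTR and 263 CPM in mCRS libraries, and 11 of 16 mCRS libraries lay above the CTR median. Its log2 fold change was 0.23 (95% interval -0.09 to 0.55). The intervals of Prdx2 (-0.23 to 0.44), Prdx5 (-0.25 to 0.34) and Sod1 (-0.19 to 0.35) were narrow and lay on both sides of 0. Sod1 had its highest value, 924 CPM, in NAc mCRS 10, and its log2 fold change of 0.08 was 0.03 without this library and NAc CTR 7.

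The sparsely counted genes Prdx4 and Cat had lower medians in the NAc of mCRS mice, but the differences did not pass the test. Prdx4 had medians of 27.2 CPM in CTR and 13.1 CPM in mCRS libraries, with a log2 fold change of -1.11 and an interval from -2.54 to 0.31. A single library, NAc mCRS 14, held 38.8% of the Prdx4 counts of its group. Cat had medians of 40.3 and 21.3 CPM, 13 of 16 mCRS libraries lay below the CTR median, and the log2 fold change was -0.71 (95% interval -1.76 to 0.35). Sod2 (-0.10, 95% interval -0.75 to 0.55), Gpx4 (-0.12, 95% interval -0.75 to 0.51) and Prdx3 (-0.04, 95% interval -0.90 to 0.83) had values near 0 with wide intervals.

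Whether stress acted differently in the 2 regions was tested by the region by treatment interaction in a fit of the 62 libraries, where a positive value means a higher effect in the PFC. Of the 9 genes other than Prdx1, 0 were called and 0 had an unadjusted p below 0.05, where 1 of 11025 genes was called by edgeR (0.00907%) and 341 (3.09%) had an unadjusted p below 0.05. DESeq2 likewise called 0 of these 9, and 1 of the 11025 genes (0.00907%). For Prdx1 the difference of the effects was -0.06. This value of Prdx1 is a description, as the fit includes its NAc contrast. The widest interval was that of Prdx4, at 1.03 (95% interval -0.99 to 3.05), and the narrowest that of Sod1, at 0.14 (95% interval -0.27 to 0.55).

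**Figure D2:**
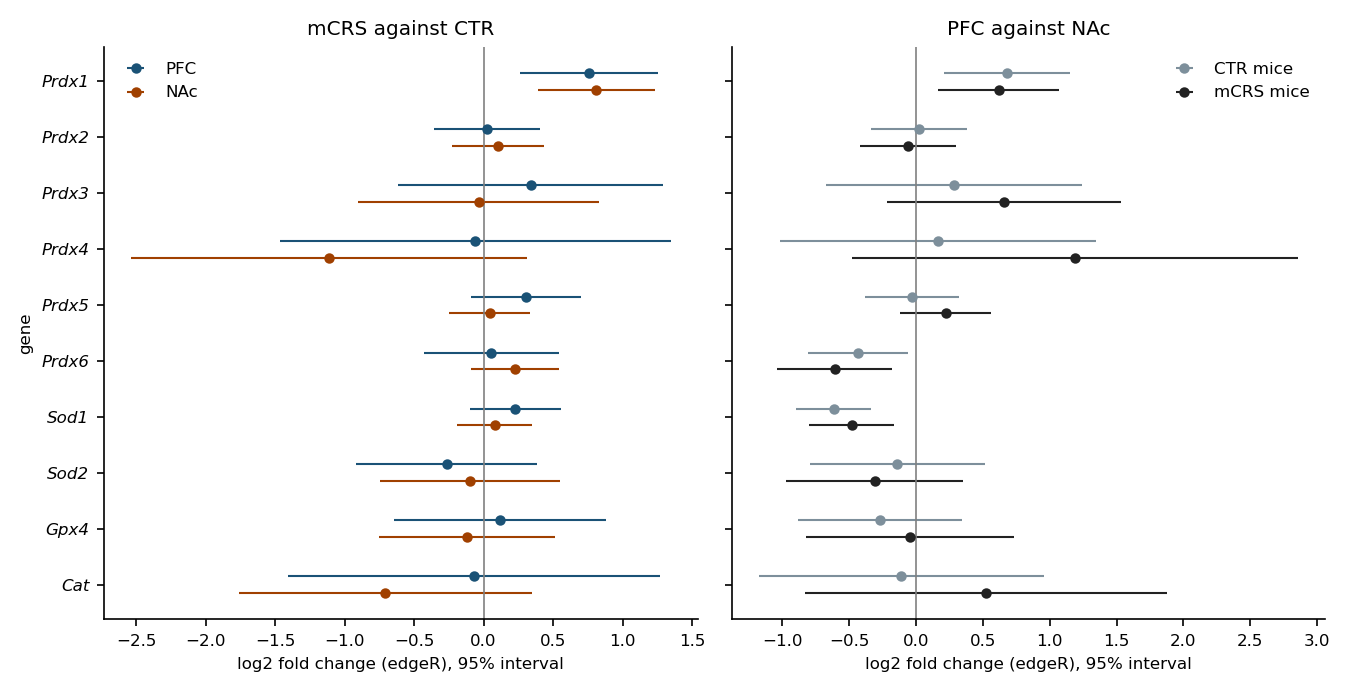
Log2 fold changes from edgeR with 95% intervals for the 10 genes, on the left mCRS against CTR in the PFC and the NAc, on the right PFC against NAc in CTR and in mCRS mice. The Prdx1 values on the left lie at 0.76 and 0.81, and on the right Sod1 (-0.62 and -0.48) and Prdx6 (-0.43 and -0.61) lie below 0 while Prdx1 (0.68 and 0.62) lies above. For Prdx1 the intervals in the NAc and between regions are not a test, as the gene was selected on its NAc values.

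The regions themselves were then compared, first in CTR mice and then in mCRS mice, which are separate sets of libraries. Sod1 was lower in the PFC of CTR mice. It ranged from 200 to 427 CPM in PFC CTR libraries with a median of 343, and from 338 to 787 CPM in the NAc with a median of 491. All 15 PFC libraries lay below the NAc median, 7 of them lay below the lowest NAc library, and 12 of the 16 NAc libraries lay above the highest PFC library. The difference, PFC minus NAc on the log2 scale, was -0.62 (SE 0.14, 95% interval -0.90 to -0.34), with an FDR of 0.00167 in edgeR's quasi-likelihood test, a level 1.53-fold higher in the NAc. It stayed below an FDR of 0.05 with each of the 31 libraries left out in turn, at log2 fold changes of -0.65 to -0.56. In the libraries numbered 1 to 8 alone the difference was -0.55 with an FDR of 0.264, and in those numbered 9 and above -0.67 with an FDR of 0.0305.

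In mCRS mice Sod1 ranged from 243 to 645 CPM in the PFC with a median of 342, and from 302 to 924 CPM in the NAc with a median of 523. Of the 15 PFC libraries 13 lay below the NAc median, but the groups overlapped more than in CTR mice. Its log2 fold change was -0.48 (SE 0.16, 95% interval -0.80 to -0.16) with an FDR of 0.0571 in edgeR, which missed the threshold, while DESeq2 gave -0.54 and an FDR of 0.0053. By library number, whose meaning was not given, the difference was -0.01 for 1 to 8 (FDR 0.998) and -0.97 for 9 and above (FDR 0.00214). Without NAc mCRS 10 it was -0.41 with an FDR of 0.134.

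Prdx6 was also lower in the PFC by value, but passed the test by neither tool in CTR mice. In CTR mice it ranged from 90.2 to 316 CPM in the PFC with a median of 158, and from 130 to 350 CPM in the NAc with a median of 260. Of the PFC libraries 12 of 15 lay below the NAc median. Its log2 fold change was -0.43 (SE 0.19, 95% interval -0.81 to -0.06; FDR 0.209 in edgeR, 0.068 in DESeq2). In mCRS mice Prdx6 ranged from 73.0 to 383 CPM in the PFC with a median of 160, and from 173 to 399 CPM in the NAc with a median of 263. There 8 of the 15 PFC libraries lay below the lowest NAc library. This gave a log2 fold change of -0.61 (SE 0.22, 95% interval -1.04 to -0.18; FDR 0.0874 in edgeR, 0.0174 in DESeq2). The difference in mCRS mice was -0.34 in the libraries numbered 1 to 8 (FDR 0.908) and -0.99 in those numbered 9 and above (FDR 0.0373).

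Prdx1 had the opposite direction, with higher values in the PFC of both sets of mice. These values are a description, because the NAc libraries on which it was selected enter both contrasts. In CTR mice 12 of 15 PFC libraries lay above the NAc median and 7 above the highest NAc library. Its difference was 0.68 on the log2 scale, and it ran from 0.56 without PFC CTR 14 to 0.73 without PFC CTR 3. In mCRS mice 13 of 15 PFC libraries lay above the NAc median, and the log2 fold change was 0.62. Within the numbering it was 0.46 and 0.89 in CTR mice, and 0.90 and 0.35 in mCRS mice, each time for libraries 1 to 8 and then for 9 and above.

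In all, 1 of the 9 genes other than Prdx1, namely Sod1, was called between regions in CTR mice, where 628 of 9932 genes tested were called (6.32%, and 2.09% in the direction of Sod1). At an unadjusted p below 0.05 there were 2 of these 9 (Sod1 and Prdx6), against 15.0% of all genes tested. In mCRS mice 0 of the 9 were called by edgeR, where 596 of 9452 genes were called (6.31%), and the same 2 had an unadjusted p below 0.05, against 14.8% of all genes. DESeq2 called Sod1 in CTR mice, against 8.21% of all genes, and Sod1 and Prdx6 in mCRS mice, against 8.18%. Over the 10 genes the median log2 fold change was -0.07 in CTR mice, with -0.02 for all genes tested, and 0.09 in mCRS mice, with -0.03 for all genes. Without Prdx1 these medians were -0.11 and -0.05.

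The other 7 genes did not pass the test between regions by either tool. Prdx2 differed by 0.02 in CTR mice (95% interval -0.33 to 0.38) and by -0.06 in mCRS mice (-0.42 to 0.30). Prdx5 differed by -0.03 in CTR mice (95% interval -0.38 to 0.32) and by 0.22 in mCRS mice (-0.12 to 0.56). Sod2 was lower in the PFC by value in both sets (-0.14 and -0.31), and Gpx4 likewise (-0.27 and -0.05). Prdx3 (0.28 and 0.66) and Prdx4 (0.16 and 1.19) were higher by value in the PFC. Cat had values of -0.11 and 0.52.

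**Figure D3:**
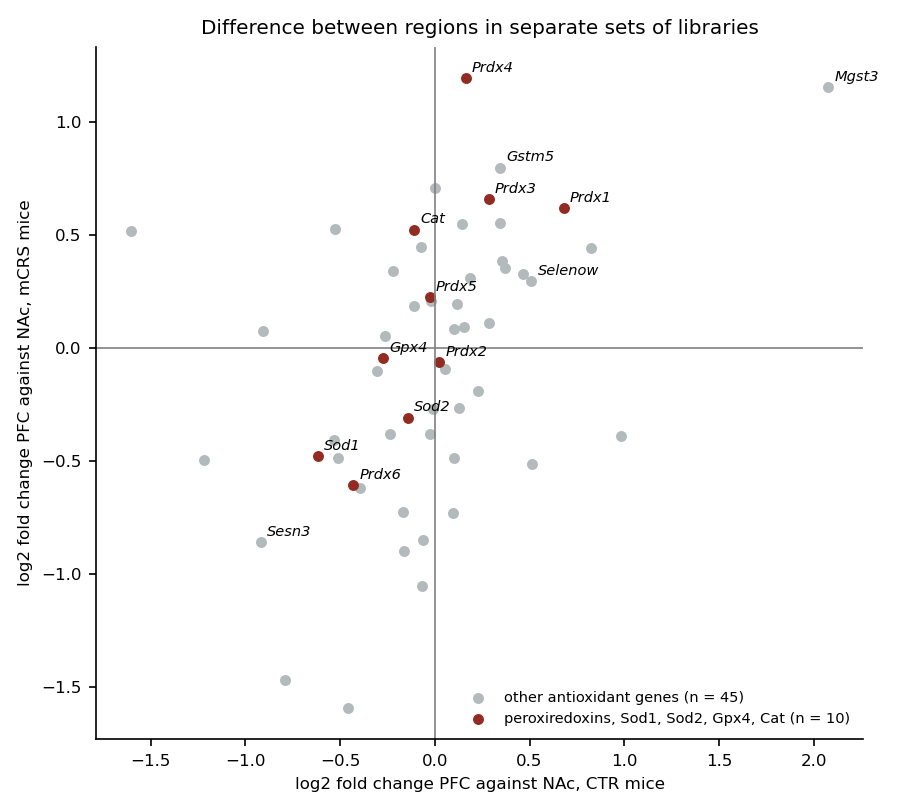
Log2 fold change of PFC against NAc in CTR mice (x axis) and in mCRS mice (y axis), with the 10 genes in red and 45 other antioxidant genes in grey, each point a gene. Sod1 and Prdx6 fall in the lower left and Prdx1 in the upper right, while Cat lies at -0.11 and 0.52.

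Cell type markers also differed between the regions. The 8 oligodendrocyte markers summed to 1730 to 6155 CPM (CTR) and 2598 to 7125 CPM (mCRS) in the PFC, against 5410 to 8289 CPM and 5241 to 8613 CPM in the NAc, and 5 of 8 were called lower in the PFC of CTR mice. The 9 striatal markers were all called lower in the PFC of CTR mice, where Drd2 had no count in 6 libraries. Cortical excitatory neuron markers, 5 of 8 of which were called higher in the PFC of CTR mice, summed to 4046 to 7511 CPM there and to 589 to 1562 CPM in the NAc. The 9 astrocyte markers summed to medians of 3877 CPM (CTR) and 3400 CPM (mCRS) in the PFC and 3717 and 3637 CPM in the NAc, sums in which Slc1a2, higher by value in the PFC (log2 fold changes of 0.34 and 0.26), had group medians of 1606 to 2093 CPM. Gene by gene, 6 of the 9 had log2 fold changes below 0 in CTR mice, with a median of -0.20, and 7 of 9 in mCRS mice, with a median of -0.39. Aldoc, a glycolytic enzyme of astrocytes, was called lower in the PFC of both sets (-0.39, edgeR FDR 0.0313, and -0.46, edgeR FDR 0.012), as Prdx6 was by value. The 4 erythroid markers counted summed to medians of 813 CPM (CTR) and 912 CPM (mCRS) in the PFC and 526 and 576 CPM in the NAc, while Prdx2 was nearly level. The part of cell composition in the differences of Sod1, Prdx6 and Prdx1, between regions or after stress, was not tested, and in such tissue samples fewer cells of a type and less RNA per cell cannot be told apart.

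**Figure D4:**
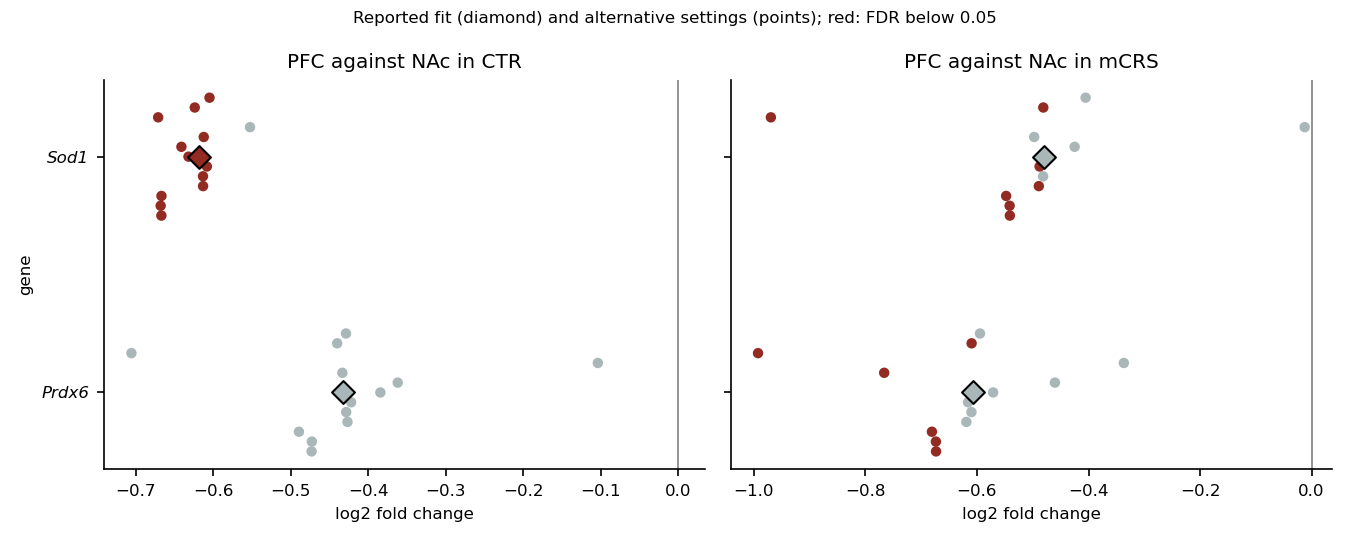
Log2 fold change of PFC against NAc for Prdx6 and Sod1 in CTR (left) and mCRS mice (right), with the reported fit as a diamond and alternative settings as points (fits without single libraries not shown), red where the FDR was below 0.05. Sod1 in CTR mice lies between -0.67 and -0.55 under the settings plotted, whereas in mCRS mice it runs from -0.97 to -0.01.

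Some of these counts can lack reads from stretches with a copy elsewhere, or include reads of an overlapping gene. Stretches of 70 bases in the last 500 bases of the transcripts were searched for identical copies in transcripts of other genes. Of those of Gpx4, 85.3% had such a copy (Gpx4-ps2 and AC122253.3). Reads from a stretch with a copy at another place in the genome would not map uniquely and would not be counted. The places of the copies were not compared, and Gpx4 values are uncertain for this reason. The shares were 18.1% for Sod1 (Gm8566), 13.4% for Prdx1 (Gm21399 and Gm7204), 2.03% for Prdx2 (Tdpx-ps1) and 0 for the remaining 6 genes. The 3′ end of Sod1 is overlapped on the opposite strand by Scaf4, and that of Prdx2 by Junb. Whether the counting used strand was not given in the sources used here.

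The wider antioxidant system was described with a list of 57 further genes, of which 52 were counted. It covers the thioredoxin and glutathione systems, superoxide, quinone and haem enzymes, regulators of NRF2, and genes of repair and iron storage. After stress 0 of 45 tested genes of the list were called in the PFC and 0 of 49 in the NAc by edgeR, and 4 and 2 had an unadjusted p below 0.05, where 3.50% and 2.04% of all genes tested did. The 3 of smallest p in the PFC were Nfe2l1, an NRF2-related factor (log2 fold change -0.55, p = 0.019, edgeR), Mafg, a small MAF partner of NRF2 (-1.27, p = 0.021, edgeR), and Gstm5, a glutathione transferase (0.58, p = 0.026, edgeR), all with an FDR of 1. In the NAc they were Selenow, a small selenoprotein (0.30, p = 0.018, edgeR), Txnrd2, the mitochondrial thioredoxin reductase (-2.06, p = 0.02, edgeR), and Gclc, the catalytic subunit that makes the precursor of glutathione (-0.67, p = 0.075, edgeR), again with an FDR of 1. The list had a median log2 fold change of -0.07 in the PFC and -0.09 in the NAc, against -0.01 over all genes in both.

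Between regions 3 of 47 list genes were called by edgeR in CTR mice, where 6.32% of all genes were, and 1 of 45 in mCRS mice, where 6.31% were, and 0 in both. DESeq2 called 3 in each set, against 8.21% and 8.18% of all genes. These 4 genes are named after their values were seen. Mgst3, a microsomal glutathione transferase, was higher in the PFC of CTR mice by 2.08 on the log2 scale (SE 0.39, edgeR FDR 0.000117), with medians of 144 CPM in the PFC and 30.3 CPM in the NAc, and by 1.15 in mCRS mice (edgeR FDR 0.0709). Selenow was higher by 0.51 in CTR mice (edgeR FDR 0.00903), and Sesn3, of the stress-induced sestrins, was lower in the PFC of these mice (-0.92, edgeR FDR 0.017). Gstm5 was higher in the PFC of mCRS mice by 0.80 (edgeR FDR 0.0248). The region by treatment interaction had an FDR of 1 in edgeR for each of the 4.

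Finally, the genes that varied most like each of the 10 were sought by the Pearson correlation of log2 CPM (prior count 2), as deviations from group means over all 62 libraries and among 11025 genes. These correlations are a description, since the points share library depth and quality. The closest gene to Prdx1 was Gdap1 at r = 0.65, with a Spearman rho of only 0.18. Prdx2 went with Iscu, an iron-sulfur scaffold (r = 0.57, rho = 0.41), and Prdx6 with Arf1, a small GTPase (r = 0.54, rho = 0.47). Sod1 was closest to 1500009C09Rik (r = 0.51, rho = 0.49) and Sod2 to Ube2k (r = 0.61, rho = 0.45). For Prdx3 the closest was Col12a1 (r = 0.51), for Prdx4 Ndufc1 (r = 0.52), for Prdx5 Fxr1 (r = 0.52), for Gpx4 Puf60 (r = 0.58) and for Cat Pon2 (r = 0.52). Within the set the closest pair was Prdx1 and Prdx2 (r = 0.40, rho = 0.21), followed by Sod1 and Prdx6 (r = 0.32, rho = 0.31), and no gene of the set was the closest to another.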

How the data were processed

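The deposited counts are whole numbers of uniquely mapped reads per gene, without normalization. Reads had been aligned by the authors with STAR (GRCm38/mm10) and counted with HTSeq, for which the submitters' notes give version 0.9.1 and the methods another version. BRB-seq reads were counted without molecular identifiers. Ensembl IDs were matched to symbols for 11120 of 11121 genes. The members and gene lists were chosen with earlier results of these data known. Genes named are the 10 members, the 3 list genes of smallest p per stress comparison, list genes called in both sets of mice and the gene most alike to each member, with 4 exceptions given in the text. Each comparison was fitted over all genes with edgeR 4.0.16 (R 4.3.3): TMM, the default filter by group, the quasi-likelihood test and Benjamini-Hochberg FDR over all genes tested, with a threshold of 0.05. All 10 members passed the filter in every comparison. The scripts were run on simulated data with planted changes larger than the differences reported for the 10 genes. Recovery of differences of the reported size was not tested. Alternatives were DESeq2 1.42.0, other normalizations, filters, covariates, the replicate number as a block, subsets by library number, all libraries in one fit and each library left out.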

Additional observations from a re-analysis of the deposited data

How the results depend on the processing

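Under all alternatives run, 0 of the 10 genes were called in the PFC after stress, and 0 of the 9 other than Prdx1 in the NAc after stress and in the interaction. Between regions Prdx1 is left out of what follows, as its values there are a description. In CTR mice Sod1, called in the reported fit, stayed called with log2 library size as a covariate and with each single library left out. It was among the genes called in the libraries numbered 9 and above, but was not called in those numbered 1 to 8. Between regions in mCRS mice the count of called genes, 0 in the reported fit, was 2 with DESeq2, RLE normalization and upper-quartile normalization (Sod1 and Prdx6 each time). The same 2 were called with all 62 libraries in one fit and in the libraries numbered 9 and above. The count was 1 with library sizes without mtDNA genes, with the stricter filter on low counts (Sod1 in both) and with the replicate block (Prdx6). DESeq2 called 8.18% of all genes tested in mCRS mice. For the other alternatives the share of all genes called was not counted, so their member counts cannot be set against it. Single libraries were left out of the stress comparisons and of the CTR comparison between regions. The fits without NAc CTR 7 and NAc mCRS 10, chosen after the data were seen, changed no call. Same-numbered libraries of 2 groups had correlations of their deviations of -0.03 to 0.05, and 0 pairs were above 0.1. Only equal numbers were paired, and numbers may be shifted between regions, so this cannot show whether libraries share a mouse. The cause of these shifts was not tested. Depth limits Prdx4 and Cat most.

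Values of genes without a call changed sign as follows, on the log2 scale. For PFC mCRS against CTR, Prdx2 was -0.021 with log2 library size as a covariate, -0.061 with the detected share of genes, -0.0062 with upper-quartile normalization and -0.39 in libraries 9 and above, where Prdx3 was -0.49, Prdx4 0.34 and Prdx6 -0.21. Gpx4 was -0.0071 and -0.12 with these covariates and -0.25 with the replicate block, where Prdx6 was -0.051. Cat was 0.79 in libraries 1 to 8. With single libraries left out, Prdx2 ran from -0.053 to 0.11, Gpx4 from -0.14 to 0.20, Prdx6 from -0.055 to 0.14, Prdx4 from -0.30 to 0.17 and Cat from -0.65 to 0.049. For NAc mCRS against CTR, Prdx3 was 0.081 with log2 library size, 0.049 with the detected share and 0.28 in libraries 9 and above, where Prdx5 was -0.019. Sod2 was 0.015 and 0.0073 with these covariates and 0.13 with the replicate block. Sod1 was -0.21 and Gpx4 0.010 in libraries 1 to 8. With single libraries left out, Prdx3 ran from -0.17 to 0.056 and Sod2 from -0.23 to 0.041. For the interaction, Prdx1 was 0.45 and Prdx2 0.23 in libraries 1 to 8, Prdx3 -0.77 and Sod1 -0.26 in libraries 9 and above, and Cat -0.10 with the replicate block. For PFC against NAc in CTR mice, Prdx2 was -0.017 with DESeq2, -0.016 with RLE and -0.045 with upper-quartile normalization. Prdx3 was -0.35, Prdx4 -0.33 and Prdx5 0.060 in libraries 1 to 8, and Sod2 0.0012 and Cat 0.54 in libraries 9 and above. Prdx5 was 0.0059 with log2 library size and 0.0098 with the detected share, and Sod2 was 0.0025 with the detected share and 0.17 with the replicate block. With single libraries left out, Prdx2 ran from -0.056 to 0.066, Prdx4 from -0.069 to 0.51, Cat from -0.23 to 0.00013 and Prdx5 from -0.087 to 0.047. For PFC against NAc in mCRS mice, Prdx2 was 0.31 in libraries 1 to 8 and 0.00059 with the detected share, Prdx3 -0.0025 and Gpx4 0.038 in libraries 9 and above, Gpx4 0.033 with log2 library size, and Cat -0.46 with the replicate block.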
